A study of Homo sapiens with 4 samples.

Results

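Protein O-mannosylation was followed through 9 genes of CAL27 cells, a long-established line from a human squamous cell carcinoma of the mouth, out of 29437 genes in the deposited tables. They are DPM1, DPM2 and DPM3, the subunits of dolichol-phosphate mannose synthase; POMT1 and POMT2, which place the first mannose on a protein; POMGNT1, POMGNT2 and POMK, which extend or phosphorylate that mannose; and DAG1, which encodes dystroglycan, the best known substrate. The set was chosen by measured values of 2 members: DPM3 lay among the largest positive and POMK among the largest negative changes between the groups compared here. The values of DPM3 and POMK in that comparison are therefore given as a description without a test, and the other 7 genes were taken for their place in the pathway. Cells with CCL20 overexpression (2 libraries), made with a lentivirus, were compared with cells labelled as negative control (2 libraries). CCL20 is a chemokine that attracts cells carrying the receptor CCR6. All 4 libraries came from polyadenylated RNA of the same line, harvested after 48 hours. The labels do not state whether replicates were separate cultures or clones, so the p-values below measure only the spread between these libraries.

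O-mannosylation begins in the endoplasmic reticulum with a mannose that is carried on the lipid dolichol phosphate. DPM1 holds the active site of the enzyme that makes this donor, and DPM2 and DPM3 are small membrane proteins that stabilise and tether it. The POMT1 and POMT2 complex transfers the mannose to serine or threonine. On dystroglycan, POMGNT2 and then B3GALNT2 lengthen the sugar, POMK phosphorylates the mannose, and later enzymes build matriglycan, the polysaccharide that binds laminin, agrin and perlecan in basement membranes. Inherited loss of these genes causes dystroglycanopathies, which affect muscle, brain and eye. In epithelia dystroglycan is one of the receptors that link cells to the basement membrane.

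Total gene counts lay between 13681862 and 17860695 per library. CCL20 itself had 372 and 303 counts with overexpression, against 188 and 202 in the negative control. Its log2 fold change of 0.95 (SE 0.21) became 0.06 (SE 0.24) with a correction for mRNA length, so this check of the labels rests on the scale used. Of 8 markers of squamous epithelium, 7 were at 1 FPKM or more in every library, with a summed level of 959.2 and 1225 FPKM with overexpression and of 898.8 and 969 FPKM in the control. Summed markers of endothelium, fibroblasts, neural cells and muscle were lower in both overexpression libraries than in both controls. Endothelium was at 5.27 and 5.10 FPKM with overexpression and 8.81 and 8.21 FPKM in the control. Fibroblasts were at 2.74 and 3.41 FPKM with overexpression and 4.55 and 5.47 FPKM in the control. Neural cells were at 1.44 and 1.31 FPKM with overexpression and 2.98 and 2.63 FPKM in the control. Under 1 FPKM in every library were 2 of 3 endothelial, 3 of 5 fibroblast and 3 of 4 neural markers. The highest markers of these 3 types were CDH5, COL1A1 and MBP, at means of 6.75, 2.72 and 1.86 FPKM. The part of these markers in the results was not tested. Leukocyte markers summed to 1.35 and 1.94 FPKM with overexpression and 1.20 and 1.27 FPKM in the control, and muscle markers to 0.257 and 0.238 FPKM with overexpression and 0.294 and 0.339 FPKM in the control. The 4 muscle markers with a row in the tables were all under 1 FPKM in every library. FPKM is the count per kilobase of gene length, scaled to the number of counted reads.

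Among the 7 genes not used for the choice, DPM1 and DPM2 rose and DAG1 fell with CCL20 overexpression, while POMT1, POMT2, POMGNT1 and POMGNT2 did not pass the test. All 9 genes passed the filter of a mean of at least 1 FPKM over the 4 libraries, POMT1 with a mean of 1.03 FPKM. Over all 12168 genes tested, 16.5% were higher and 15.7% were lower at an adjusted p under 0.05, so 2 of 7 higher and 1 of 7 lower are read against a background of about that size. The median log2 fold change of the 7 genes was -0.06, against 0.00 for all genes tested. Fold changes are edgeR estimates on counts scaled by TMM factors, and adjusted p-values are from edgeR's quasi-likelihood test with Benjamini-Hochberg adjustment over all genes tested. On that scale the groups did not overlap for 4 of these 7 genes, DPM1, DPM2, POMT2 and DAG1, against 71.6% of all genes tested. They were also apart for DPM3 and POMK, from which nothing is read. In bulk RNA a smaller share of cells expressing a gene and less RNA per cell cannot be told apart. Of all genes tested, 2010 were higher and 1905 were lower, against 1251 and 2985 on library sizes alone and 482 and 4585 on a TPM scale, where the median of all genes moved to -0.21 and -0.50. When control replicate 1 or control replicate 2 was left out, the calls of DPM1, DPM2 and DAG1 all ended, with the spread then taken from the overexpression pair alone.

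**Figure D1:**
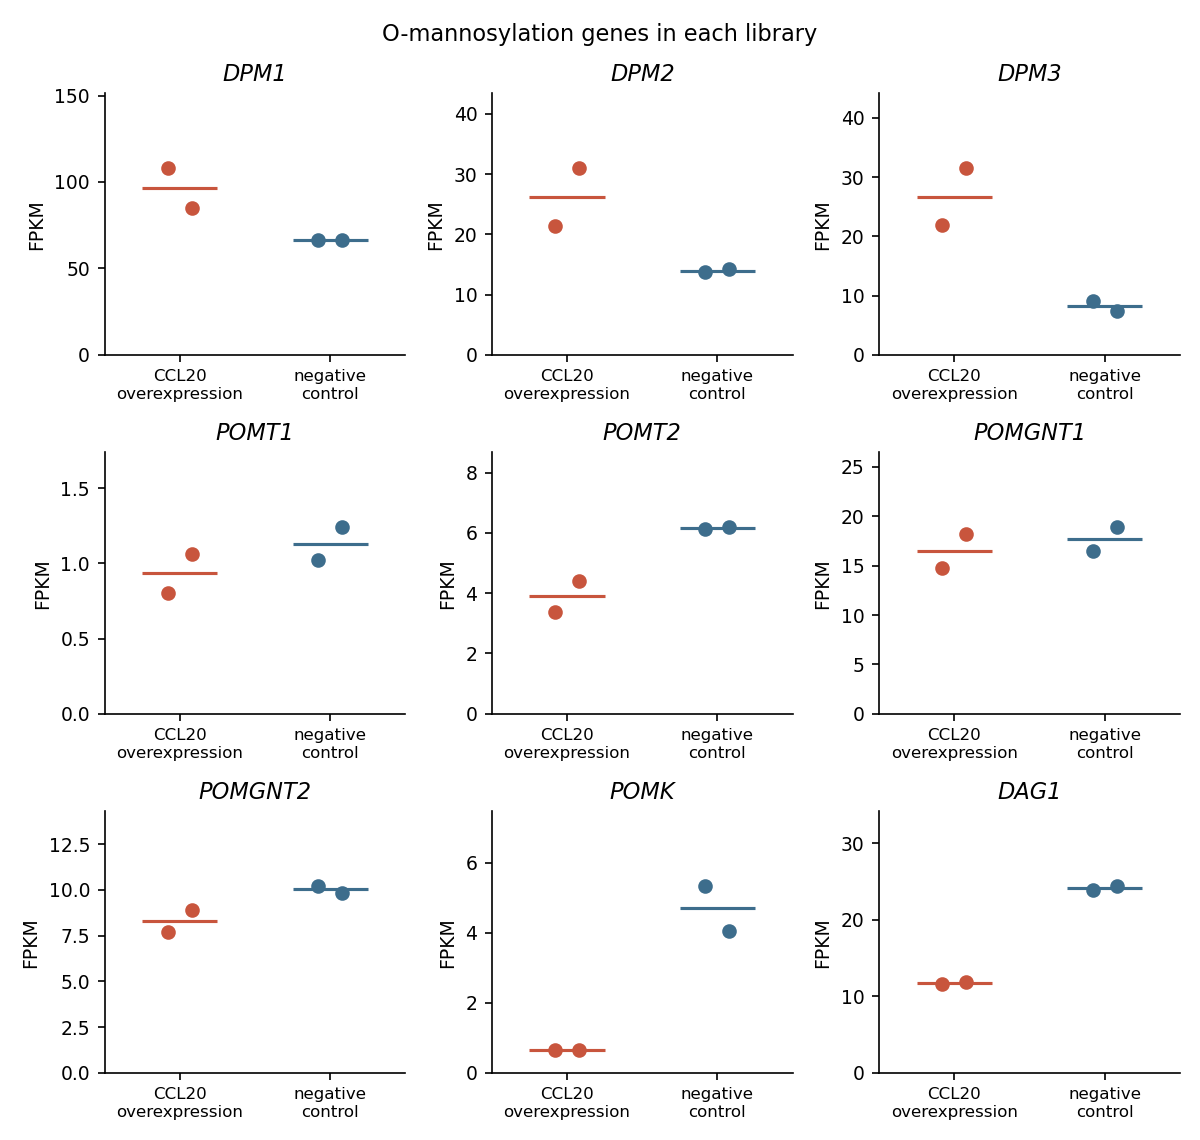
FPKM of the 9 O-mannosylation genes in each library, one panel per gene with its own axis from 0; points are libraries (replicate 1 left, replicate 2 right) and lines are group means. DPM1, DPM2 and DPM3 lie higher and POMT2, POMGNT2, POMK and DAG1 lower in both CCL20 overexpression libraries than in both controls.

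The 3 subunits of dolichol-phosphate mannose synthase all had higher levels with CCL20 overexpression, of which DPM3 was chosen for its rise. DPM3 (ENSG00000179085; GRCh38 chromosome 1, 155139891 to 155140595, minus strand, protein coding) tethers the catalytic subunit to the membrane of the endoplasmic reticulum. DPM3 had 209 and 331 counts, or 21.9 and 31.5 FPKM, with overexpression, against 77 and 82 counts, or 9.05 and 7.38 FPKM, in the control. Both overexpression libraries lay above both controls, and overexpression replicate 2 was the highest. The exact Poisson 95% intervals of the DPM3 level, which cover counting error only, ran from 19.0 to 25.1 and from 28.2 to 35.1 FPKM in the overexpression libraries and from 7.14 to 11.3 and from 5.87 to 9.16 FPKM in the controls. The log2 fold change was 1.92 (SE 0.28), or 3.79-fold, the highest but 1 among 10572 tested coding genes. The gene next above it was C6orf226 (log2 fold change 2.12) and the gene next below it was MRPL12 (1.85), a mitochondrial ribosomal protein. SLC50A1, a sugar transporter gene named for its position, which lies 1034 nt away from DPM3, had 20.8 and 21.4 FPKM with overexpression, against 15.0 and 15.0 FPKM in the control (log2 fold change 0.70, SE 0.17, edgeR adjusted p = 0.0179). This call ended after the mRNA length correction (0.02, edgeR adjusted p = 0.945), as it did on a TPM scale (edgeR adjusted p = 0.424). KRTCAP2, the nearest tested coding gene on the other side, had 1.14 and 1.05 FPKM with overexpression and 1.36 and 2.25 FPKM in the control (-0.52, SE 0.31, edgeR adjusted p = 0.222), and was past the threshold with that correction (-1.53, edgeR adjusted p = 0.0322).

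DPM2 (ENSG00000136908; GRCh38 chromosome 9, 127935099 to 127938484, minus strand, protein coding), the other small membrane subunit, had 21.4 and 31.0 FPKM with overexpression, against 13.7 and 14.2 FPKM in the control. DPM2 rose 2.18-fold (1.13 on the log2 scale, SE 0.23, edgeR adjusted p = 0.00971). As for DPM3, overexpression replicate 2 was the highest library and the groups did not overlap. An annotated antisense gene, AL157935.1, shares 602 nt with the exons of DPM2 and had 10 and 18 counts with overexpression and 10 and 19 in the control, beside 1031 and 1636 DPM2 counts with overexpression and 587 and 792 in the control. DPM1 (ENSG00000000419; GRCh38 chromosome 20, 50934867 to 50958555, minus strand, protein coding), the catalytic subunit, had 108 and 85.2 FPKM with overexpression, against 66.4 and 66.4 FPKM in the control. DPM1 rose 1.67-fold (0.74 on the log2 scale, SE 0.17, edgeR adjusted p = 0.0148). Here overexpression replicate 1 was the highest, the reverse of DPM2 and DPM3. On a TPM scale both calls ended, with log2 fold changes of 0.60 for DPM2 (edgeR adjusted p = 0.0512) and of 0.25 for DPM1 (edgeR adjusted p = 0.372). The DPM1 call also ended on library sizes alone (0.53, edgeR adjusted p = 0.0541). By limma on log2(FPKM + 1) and log2(FPKM + 0.1) it ended as well (limma adjusted p = 0.0575 and 0.0606). The call of DPM2 held in those fits. With a correction for mRNA length both calls also ended, at 0.57 for DPM2 (edgeR adjusted p = 0.122), and the direction of DPM1 turned, at -0.04 (edgeR adjusted p = 0.931).

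The proportions between the subunits differed by library. DPM3 stood at 0.203 and 0.370 of the FPKM of DPM1 with overexpression, against 0.136 and 0.111 in the control. DPM2 stood at 0.199 and 0.363 of DPM1 with overexpression, against 0.206 and 0.213 in the control, so overexpression replicate 1 lay just under the controls and only overexpression replicate 2 was above them. Relative to DPM2, DPM3 was at 1.02 in both overexpression libraries, against 0.661 and 0.522 in the control. The DPM3 ratios contain the value that chose the gene and carry no test.

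The promoter windows of the 3 subunit genes, which lie on different chromosomes, are shown as a description. The rise of DPM3 was used to choose the set. Among coding genes of similar mRNA length, 73.2% (for DPM1 and DPM3) and 46.1% (for DPM2) were also higher. Whether the 3 genes share regulation was not tested. RefSeq windows on GRCh38.p14 ran from 250 bases before to 50 bases after an annotated start. They were taken for 8 of the 9 genes, with 12 windows in all. POMK was left out, so the gene counts below do not cover it. Capitals mark ACTNCNNNTCCC, whose letters lie within the longer element bound by ZNF143, and CCGGAA, the core bound by ETS factors, each searched on both strands; the marked matches do not overlap. The first pattern was spelled out after the windows had been read. It occurs in the windows of DPM2, DPM3, POMT2 and POMGNT2 and in 4.54% of all 35116 windows, and CCGGAA occurs in those of DPM1, DPM2, DPM3 and POMT2 and in 17.2% of all windows. The matches to the first pattern read ACTACAACTCCC in DPM3, ACTACGACTCCC in DPM2, ACTGCAACTCCC in POMT2 and ACTACACCTCCC in POMGNT2. GGGCGG, a GC box, occurs in windows of 5 of the 8 genes and in 45.0% of all windows. CCAAT occurs in 2 of the 8 genes and 34.6% of all windows, and TATAAA in 2 of the 8 genes and 11.5% of all windows. For all 5 patterns, a gene counts with a match in any of its windows, while the percentages are over single windows. Gene counts and percentages are therefore not like for like. Each sequence runs 5′ to 3′ on the minus strand, the strand of the gene.
DPM3, chr1:155140482-155140781: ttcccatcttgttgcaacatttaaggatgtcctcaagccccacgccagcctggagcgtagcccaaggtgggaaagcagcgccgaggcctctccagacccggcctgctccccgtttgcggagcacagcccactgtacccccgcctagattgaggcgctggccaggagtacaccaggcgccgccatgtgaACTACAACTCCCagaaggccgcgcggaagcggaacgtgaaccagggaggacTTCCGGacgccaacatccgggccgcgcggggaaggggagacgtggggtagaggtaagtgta
DPM2, chr9:127937805-127938104: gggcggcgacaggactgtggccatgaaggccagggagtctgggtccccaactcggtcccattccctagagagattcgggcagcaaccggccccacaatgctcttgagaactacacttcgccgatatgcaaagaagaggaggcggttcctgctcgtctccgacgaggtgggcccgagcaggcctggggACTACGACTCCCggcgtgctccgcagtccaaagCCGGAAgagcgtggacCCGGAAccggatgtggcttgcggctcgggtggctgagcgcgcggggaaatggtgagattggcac
DPM1, chr20:50958483-50958782: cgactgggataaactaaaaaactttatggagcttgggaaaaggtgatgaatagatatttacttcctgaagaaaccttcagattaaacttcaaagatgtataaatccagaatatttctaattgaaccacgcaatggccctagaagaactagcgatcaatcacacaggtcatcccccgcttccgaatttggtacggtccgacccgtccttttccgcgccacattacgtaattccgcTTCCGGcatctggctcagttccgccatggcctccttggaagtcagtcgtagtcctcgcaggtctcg

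The mannosyltransferase genes did not pass the test. POMT2 (ENSG00000009830; GRCh38 chromosome 14, 77274956 to 77320884, minus strand, protein coding) had 3.38 and 4.41 FPKM with overexpression, against 6.13 and 6.19 FPKM in the control. The groups of POMT2 did not overlap, and its log2 fold change of -0.45 (SE 0.20) gave an edgeR adjusted p of 0.116. POMT2 was past the threshold on scales without TMM factors, with a log2 fold change of -0.67 on library sizes alone (edgeR adjusted p = 0.0292) and of -0.97 on a TPM scale (edgeR adjusted p = 0.00893). POMT1 (ENSG00000130714; GRCh38 chromosome 9, 131502902 to 131523806, plus strand, protein coding), its partner in the complex, was the lowest of the 9 genes in the control, with 0.805 and 1.06 FPKM with overexpression and 1.02 and 1.24 FPKM in the control. The groups of POMT1 overlapped, at 75 and 108 counts with overexpression and 85 and 134 in the control, and its log2 fold change was -0.07 (SE 0.28, edgeR adjusted p = 0.859). POMT2 stood at 4.20 and 4.18 times the FPKM of POMT1 with overexpression, against 5.99 and 5.01 times in the control.

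The N-acetylglucosamine transferases that act next also did not pass. POMGNT1 (ENSG00000085998; GRCh38 chromosome 1, 46188682 to 46220305, minus strand, protein coding), which extends the mannose into the shorter, classical glycans, had 14.8 and 18.2 FPKM with overexpression and 16.5 and 18.9 FPKM in the control. The groups of POMGNT1 overlapped, and its log2 fold change was 0.11 (SE 0.19, edgeR adjusted p = 0.676). This value turned to -0.11 on library sizes alone and to -0.40 on a TPM scale. POMGNT2 (ENSG00000144647; GRCh38 chromosome 3, 43079232 to 43106076, minus strand, protein coding), which starts the glycan that leads to matriglycan, had 7.71 and 8.89 FPKM with overexpression, against 10.2 and 9.84 FPKM in the control. The groups of POMGNT2 were apart in FPKM and overlapped on the TMM scale, with a log2 fold change of -0.06 (SE 0.19, edgeR adjusted p = 0.819). On a TPM scale it was -0.58, past the threshold (edgeR adjusted p = 0.0480). The opposite-strand gene LURAP1 shares 601 nt with the exons of POMGNT1 and had at most 2 counts in a library.

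POMK (ENSG00000185900; GRCh38 chromosome 8, 43093506 to 43123434, plus strand, protein coding) encodes the kinase that phosphorylates the mannose of the matriglycan precursor. POMK had 19 and 21 counts, or 0.659 and 0.663 FPKM, with overexpression, against 137 and 136 counts, or 5.33 and 4.06 FPKM, in the control. The overexpression libraries were nearly equal and lay far under both controls, and control replicate 1 was the highest. The exact Poisson 95% intervals of the POMK level ran from 0.397 to 1.03 and from 0.411 to 1.01 FPKM in the overexpression libraries and from 4.48 to 6.31 and from 3.40 to 4.80 FPKM in the controls. They cover counting error only and are no test, since POMK was chosen for this difference. The log2 fold change was -2.61 (SE 0.32), or 6.11-fold lower, the 12th lowest among the tested coding genes. ARHGAP5, a GTPase-activating protein, was next lower (-2.65), and TSTD2 was next higher (-2.59).

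POMK stood at 0.0855 and 0.0746 of the FPKM of POMGNT2, which acts upstream of it on the same glycan, with overexpression, against 0.522 and 0.412 in the control. The tested coding genes nearest to POMK on its chromosome, named for their position, did not pass the test. FNTA, a farnesyltransferase subunit, had 2.73 and 2.90 FPKM with overexpression and 1.98 and 2.46 FPKM in the control (log2 fold change 0.54, SE 0.20, edgeR adjusted p = 0.0680). HGSNAT, a lysosomal acetyltransferase, had 2.07 and 3.56 FPKM with overexpression and 5.17 and 4.93 FPKM in the control (log2 fold change -0.62, SE 0.28, edgeR adjusted p = 0.114).

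DAG1 (ENSG00000173402; GRCh38 chromosome 3, 49468703 to 49535618, plus strand, protein coding), the gene of dystroglycan, had 1229 and 1388 counts, or 11.6 and 11.9 FPKM, with overexpression, against 2267 and 3019 counts, or 23.9 and 24.4 FPKM, in the control. Replicates of each group were close, and the groups were far apart. DAG1 fell 1.79-fold (-0.84 on the log2 scale, SE 0.16, edgeR adjusted p = 0.00858). After correction for mRNA length its log2 fold change was -0.34, no longer past the threshold (edgeR adjusted p = 0.259).

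The changes of the 7 genes not used for the choice ran along with the length of their mRNAs, as those of all coding genes did. The mRNA length is the median of the transcripts that the annotation marks as principal. It was 447.5 nt for DPM3, 1075 nt for DPM1, 1542 nt for DPM2 and 1696 nt for POMK, against 4876 nt for POMT2 and 5623.5 nt for DAG1. The Spearman correlation between log2 fold change and mRNA length was -0.93 over these 7 genes and -0.73 over 10571 tested coding genes, which share the same 4 libraries. When the coding genes were split by mRNA length into 10 bins of about equal size, the bin of the shortest mRNAs, which holds DPM1 and DPM3, had a median log2 fold change of 0.98, and 73.2% of its genes were higher. In bin 9, which holds DAG1, the median was -0.54, and 41.2% were lower. POMK lay in bin 2, with a median of 0.61 and 1.70% of genes lower. Its own log2 fold change had the opposite sign, which follows from its choice as one of the largest falls. B3GALNT2 lay in bin 3, with a median of 0.38 and 2.65% of genes lower.

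With the correction for mRNA length 0 of the 7 genes not used for the choice were past the threshold by edgeR, against 6.82% of all genes so tested, and 1 of the 7 had an unadjusted p under 0.05. DPM2 then had a log2 fold change of 0.57 (SE 0.19, edgeR adjusted p = 0.122) and DPM1 had -0.04 (SE 0.18, edgeR adjusted p = 0.931). The values of POMT1, POMT2, POMGNT1 and POMGNT2 lay between -0.15 and 0.09. DPM3, without a test, was at 0.88 (SE 0.23), and POMK at -3.08 (SE 0.31), or 8.44-fold lower. When the correction used the exonic length implied by the FPKM values instead, DPM2 was past the threshold (0.79, edgeR adjusted p = 0.0386) and DPM1 and DAG1 were not (0.29 and -0.55, edgeR adjusted p = 0.286 and 0.0521). The part that mRNA length has in the changes of single genes was not tested.

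**Figure D2:**
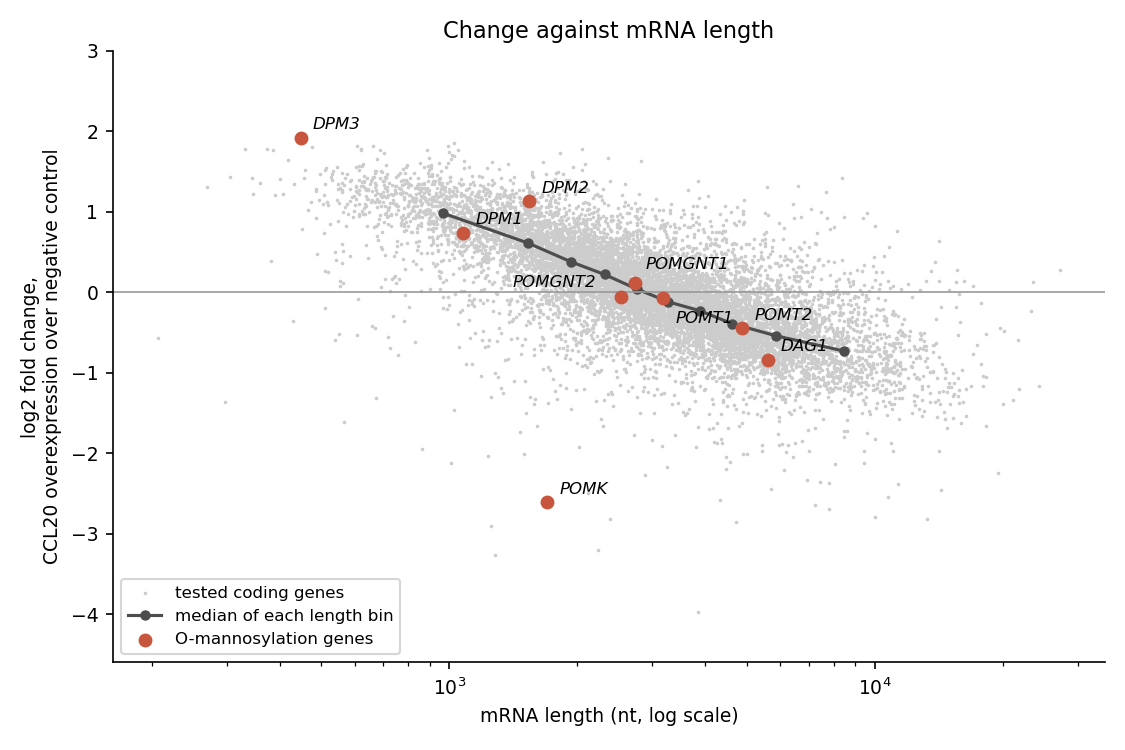
Log2 fold change of CCL20 overexpression over negative control against mRNA length (nt, log axis) for 10571 tested coding genes (grey), with the median of each of 10 length bins (line) and the 9 O-mannosylation genes (red). DPM3 lies at the short, high end and DAG1 at the long, low side of the trend, and POMK lies at -2.61. DPM3 and POMK were chosen for these values, so nothing is read from their places.

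**Figure D3:**
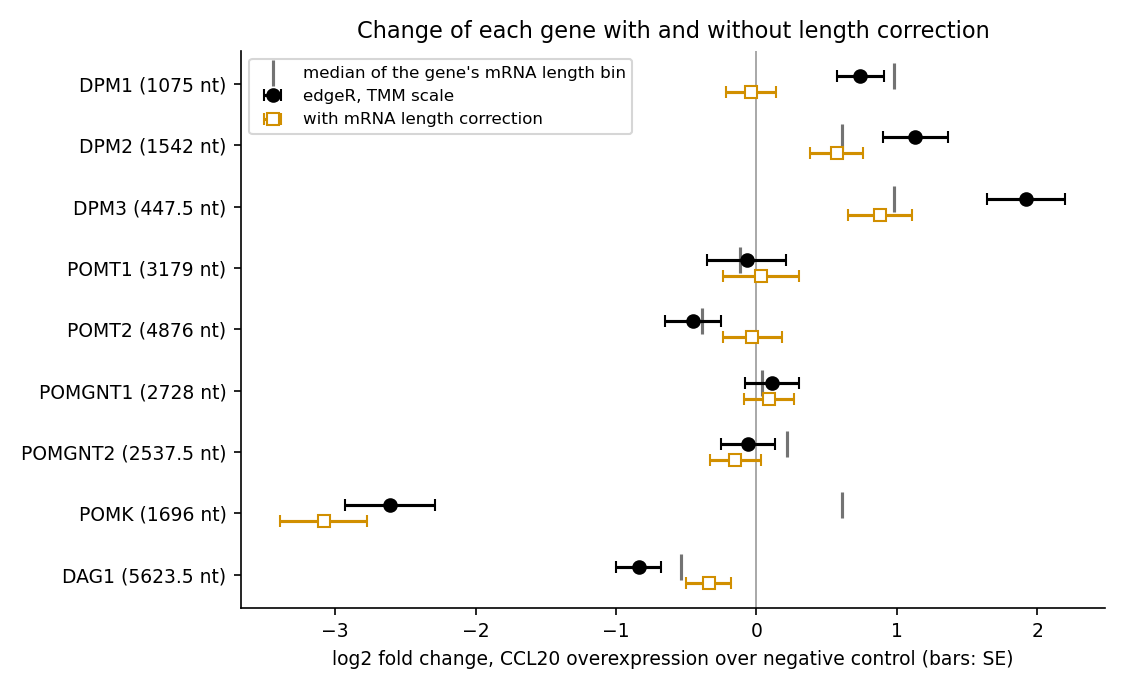
Log2 fold change of CCL20 overexpression over negative control with its SE for each O-mannosylation gene, from edgeR on TMM-scaled counts (filled circles) and with the mRNA length correction (open squares); the bar marks the median of coding genes in the same mRNA length bin. DPM1 moves to -0.04 with the correction, DPM3 lies at 0.88 with it and 1.92 without it, and POMK at -3.08 with it and -2.61 without it.

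The order of the levels differed between the groups. In FPKM, which divides by the length of all annotated exons, the overexpression libraries ran from DPM1 through DPM3 and DPM2, POMGNT1, DAG1, POMGNT2, POMT2 and POMT1 to POMK, the lowest, with DPM3 and DPM2 overlapping and all other neighbours apart. The order of POMT1 and POMK there is within counting error, since the exact Poisson 95% intervals of POMT1, 0.633 to 1.01 and 0.866 to 1.27 FPKM, overlap those of POMK. The control libraries ran from DPM1 through DAG1, POMGNT1, DPM2, POMGNT2, DPM3, POMT2 and POMK to POMT1, the lowest, with no neighbours overlapping. The exon length is much longer than the principal mRNA for some of them, at 10008 nt for POMT2 and 6198 nt for POMGNT1. Per kilobase of principal mRNA, POMGNT1 stood at 33.6 and 41.3 with overexpression and at 37.5 and 42.9 in the control, above DAG1 at 14.2 and 14.6 with overexpression and at 29.5 and 30.1 in the control. On that scale POMT2 had 6.93 and 9.04 with overexpression and 12.6 and 12.7 in the control, and DPM3 had 30.4 and 43.8 with overexpression and 12.6 and 10.3 in the control. Between the overexpression replicates, 8 of the 9 genes were higher in replicate 2, by up to 0.64 on the log2 scale for DPM2, while DPM1 was lower by 0.23 and the median over all tested genes was -0.01.

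The other genes of the pathway were grouped by role into 7 lists with 76 genes, of which 73 were in the tables and 50 passed the filter. With CCL20 overexpression 3 of these 50 rose, 17 fell and 30 did not pass, against 16.5% higher and 15.7% lower of all genes tested. Their log2 fold changes had a median of -0.27. Their mRNAs had a median length of 4458.5 nt. With the mRNA length correction 2 of them were higher and 3 were lower, against 6.82% of all genes called in either direction, and the median was -0.07. The 3 that fell in both fits were B3GALNT2, PMM2 and HSPG2.

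Matriglycan assembly held the change nearest to POMK in the order of the steps. B3GALNT2, which adds the sugar that POMK requires before it can phosphorylate the mannose, had 136 and 65 counts, or 1.55 and 0.676 FPKM, with overexpression, against 388 and 469 counts, or 4.97 and 4.61 FPKM, in the control. Both overexpression libraries lay under both controls, and replicate 2 was the lowest. B3GALNT2 fell 3.78-fold (-1.92 on the log2 scale, SE 0.32, edgeR adjusted p = 0.00604), and its call held in each alternative in which it was tested, with log2 fold changes between -2.57 and -1.46. The mRNA length correction gave -2.21 (SE 0.35, edgeR adjusted p = 0.0141).

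Of the 6 tested genes of matriglycan assembly, 0 rose and 2 fell, B3GALNT2 among them, with a median of -0.02. Over all genes tested, 16.5% were higher and 15.7% were lower. With the mRNA length correction B3GALNT2 alone of this list was past the threshold, and the median was -0.25. B4GAT1, which primes the chain, had 18.6 and 17.6 FPKM with overexpression and 17.9 and 17.2 FPKM in the control (0.25, SE 0.17, edgeR adjusted p = 0.270). The groups of B4GAT1 were close. LARGE2, a polymerase of matriglycan, had 23 and 24 counts with overexpression and 22 and 24 in the control. ISPD, which makes the ribitol donor, had 0.960 and 0.648 FPKM with overexpression and 0.869 and 0.701 FPKM in the control. LARGE2 and ISPD were under the filter and were named after their values were seen.

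Of the 11 genes that supply mannose and dolichol, 3 rose and 1 fell, with a median log2 fold change of 0.36. Over all genes tested, 16.5% were higher and 15.7% were lower. The 3 that rose, PMM1, GMPPA and MPDU1, lie in bin 2 of mRNA length, in which 46.1% of coding genes were higher. The phosphomannomutases, which convert mannose phosphates on the way to GDP-mannose, went in opposite directions. PMM2, the isozyme mutated in the commonest congenital disorder of glycosylation, had 0.911 and 0.628 FPKM with overexpression, against 2.45 and 2.02 FPKM in the control. PMM2 fell 2.53-fold (-1.34 on the log2 scale, SE 0.24, edgeR adjusted p = 0.00721), and the mRNA length correction gave -1.50 (edgeR adjusted p = 0.0157); the call ended without control replicate 1 (-1.20, edgeR adjusted p = 0.0597). PMM1 had 6.34 and 6.15 FPKM with overexpression, against 3.52 and 3.83 FPKM in the control, a rise of 1.96-fold (edgeR adjusted p = 0.00788). GMPPA, a regulator of GDP-mannose synthesis, and MPDU1, which is needed for the use of dolichol-phosphate mannose, rose 1.76- and 1.63-fold (edgeR adjusted p = 0.0147 and 0.0163). The calls of PMM1, GMPPA and MPDU1 ended with the mRNA length correction (0.29, 0.26 and 0.19, edgeR adjusted p = 0.345, 0.373 and 0.494). NUS1, a subunit of the dolichol-chain synthase, had 24.0 and 16.6 FPKM with overexpression and 28.2 and 25.3 FPKM in the control (log2 fold change -0.20, edgeR adjusted p = 0.433), and DOLPP1, a dolichol pyrophosphatase, had 16.3 and 16.3 FPKM with overexpression and 15.0 and 14.3 FPKM in the control (0.36, edgeR adjusted p = 0.139). The 2 genes that were past the threshold only with the correction were MPI, the isomerase that leads fructose phosphate into the mannose route (0.88, edgeR adjusted p = 0.0250), and SRD5A3, a reductase of dolichol synthesis (0.81, edgeR adjusted p = 0.0455); both were named after their values were seen.

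Dolichol-phosphate mannose also feeds N-glycans, GPI anchors and C-mannosylation. Of 10 tested genes of these routes, 0 rose and 1 fell, against 16.5% higher and 15.7% lower of all genes tested. The gene that fell was the C-mannosyltransferase family gene DPY19L3, in bin 9 of mRNA length, with 41.2% of coding genes lower. It had 1.10 and 0.968 FPKM with overexpression and 1.92 and 1.81 FPKM in the control (log2 fold change -0.65, edgeR adjusted p = 0.0350). ALG3, which uses the donor for N-glycans, had 35.5 and 52.5 FPKM with overexpression and 34.2 and 30.0 FPKM in the control (0.67, edgeR adjusted p = 0.0575). DPY19L1 had 17.4 and 11.6 FPKM with overexpression and 26.0 and 21.0 FPKM in the control (-0.50, edgeR adjusted p = 0.101). Among 4 tested genes of other enzymes of O-mannose glycans, 0 rose and 2 fell, against the same 16.5% and 15.7% of all genes tested. The genes that fell, MGAT5B and TMEM260, lie in bin 8 of mRNA length, in which 265 of 1058 coding genes were lower. MGAT5B, which branches O-mannose glycans, had 4.24 and 5.05 FPKM with overexpression, against 10.0 and 10.5 FPKM in the control (-0.93, edgeR adjusted p = 0.00959). TMEM260, a mannosyltransferase of plexins and MET, had 1.73 and 0.983 FPKM with overexpression, against 3.38 and 2.41 FPKM in the control (-0.90, edgeR adjusted p = 0.0422). TMTC3 and TMTC4, mannosyltransferases of cadherins, had log2 fold changes of -0.80 and -0.24 (edgeR adjusted p = 0.0504 and 0.346). The calls of DPY19L3, MGAT5B and TMEM260 ended with the mRNA length correction (-0.12, -0.58 and -0.59, edgeR adjusted p = 0.751, 0.117 and 0.224).

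The partners and ligands of dystroglycan were lower where they passed the test. Of 4 tested matrix proteins with laminin G domains, 4 fell, with mRNAs of 7323 to 14327 nt. All 4 lie in bin 10, the longest mRNAs, in which 61.4% of coding genes were lower, against 15.7% of all genes tested. HSPG2, the gene of perlecan, had 1.48 and 1.60 FPKM with overexpression, against 10.5 and 9.04 FPKM in the control, a fall of 5.47-fold (-2.45 on the log2 scale, SE 0.18, edgeR adjusted p = 0.00341). HSPG2 was at -1.58 after the mRNA length correction (edgeR adjusted p = 0.00767). AGRN, the gene of agrin, had 30.4 and 34.0 FPKM with overexpression, against 78.5 and 82.0 FPKM in the control (log2 fold change -1.11, edgeR adjusted p = 0.00482). The laminin alpha chain genes LAMA5 and LAMA3 had log2 fold changes of -0.86 and -0.78 (edgeR adjusted p = 0.0142 and 0.0130). After it, AGRN, LAMA5 and LAMA3 were at -0.47, -0.04 and 0.01 and their calls ended (edgeR adjusted p = 0.163, 0.932 and 0.978).

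Of 6 tested genes of the dystrophin-associated complex and its linkers, 0 rose and 3 fell, against 16.5% higher and 15.7% lower of all genes tested. All 3 lie in bin 10 of mRNA length, with 61.4% of coding genes lower. UTRN, the dystrophin relative of non-muscle cells, had 1.30 and 0.856 FPKM with overexpression, against 3.27 and 2.70 FPKM in the control (log2 fold change -1.27, edgeR adjusted p = 0.00672). SNTB2, a syntrophin, and PLEC, the gene of plectin, which binds dystroglycan and keratin filaments, fell 1.95- and 2.0-fold (edgeR adjusted p = 0.0109 and 0.0123). SGCB, a sarcoglycan, did not pass (-0.09, edgeR adjusted p = 0.755). Of 9 tested genes of other O-mannosylated proteins, 0 rose and 4 fell, against the same 16.5% and 15.7% of all genes tested. Of these 4, 3 lie in bin 9, with 41.2% of coding genes lower, and KIAA1549 in bin 10. KIAA1549 and SUCO, which POMT1 and POMT2 modify, had log2 fold changes of -1.02 and -0.87, and MET and PLXNB2, receptors modified by TMEM260, had -0.75 and -0.66 (edgeR adjusted p between 0.00902 and 0.0366 for the 4 genes). The cadherin genes CDH1 and CDH3 did not pass (-0.47 and -0.06, edgeR adjusted p = 0.0717 and 0.807). The 7 calls of these lists ended after the correction for mRNA length, with values between -0.45 for UTRN (edgeR adjusted p = 0.191) and -0.08 for PLXNB2 (edgeR adjusted p = 0.862).

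**Figure D4:**
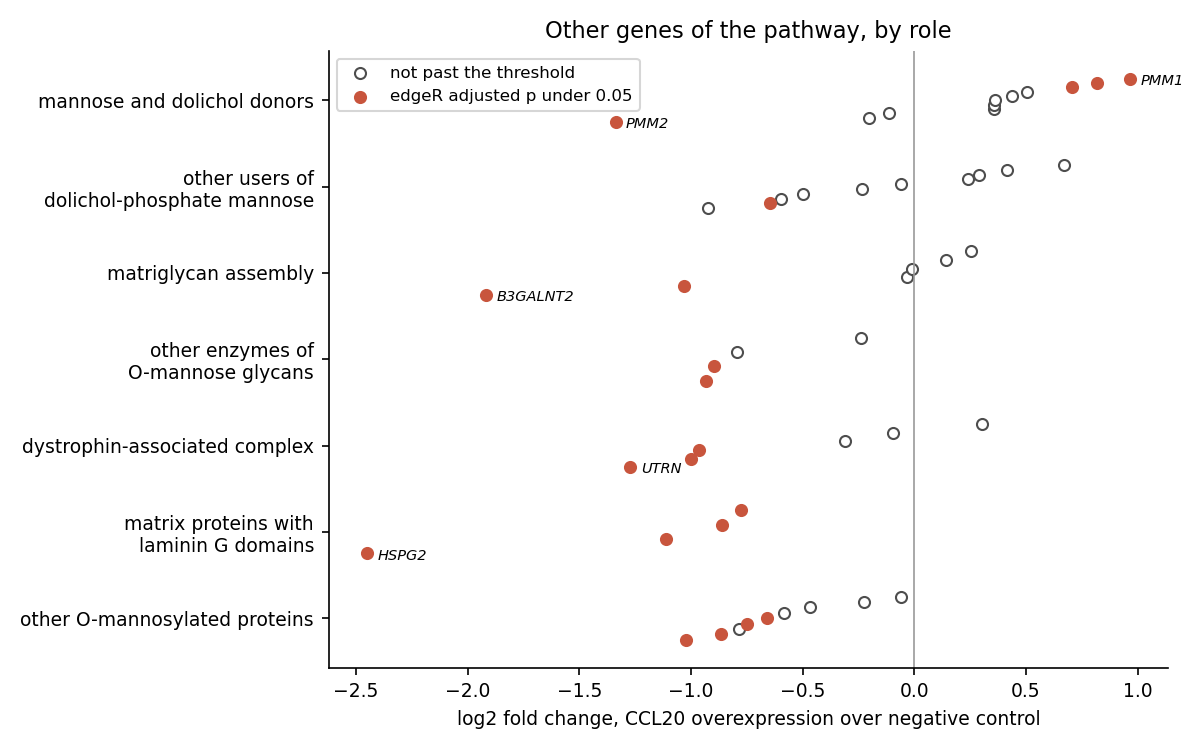
Log2 fold change of CCL20 overexpression over negative control for the 50 tested genes of 7 lists of the O-mannosylation pathway outside the 9 members; each point is a gene, filled where the edgeR adjusted p was under 0.05. PMM2, B3GALNT2 and HSPG2 lie at -1.34, -1.92 and -2.45. The rises are all among genes that supply mannose and dolichol. They lie in mRNA length bin 2, with 46.1% of coding genes higher.

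Over the 4 libraries, the coding genes whose levels followed DPM3 most closely were TMEM238, ATP5F1D, a subunit of the ATP synthase, and MRPL23, a mitochondrial ribosomal protein. Likeness was the Euclidean distance between deviations of log2(FPKM + 1) from each gene's own mean, and it was 0.15, 0.16 and 0.20. TMEM238 had 40.2 and 62.8 FPKM with overexpression and 19.5 and 16.2 FPKM in the control. Nearest to POMK were KMT2D, a histone methyltransferase, PRRC2B and TSTD2, at distances of 0.16, 0.21 and 0.22. KMT2D had 1.15 and 0.917 FPKM with overexpression and 6.65 and 4.69 FPKM in the control. With 4 libraries in 2 groups, many genes lie close to any pattern that separates the groups.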

How the data were processed

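The 4 libraries were sequenced from polyadenylated RNA. Reads were aligned with HISAT2 and counted with HTSeq 0.13.5 on GRCh38, per the submitters' processing notes; the annotation, trimming and strandedness were not given in the sources used here. Genes that overlap on opposite strands therefore cannot be told apart. The authors deposited raw counts per gene for each library. The deposited FPKM values divide those counts by a gene length, which equals the union of exons in GENCODE 29 for 99.7% of the genes, and by the counted reads. Total counts of 13681862 to 17860695 set the counting error. The mean chi-square per gene between replicates was 38.01 for the overexpression pair and 6.45 for the control pair. Counting error is thus only part of the spread between replicates.

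Groups were taken from the sample titles. Genes with a mean of at least 1 FPKM were tested on counts with the quasi-likelihood test of edgeR 4.0.16 (TMM factors, R 4.3.3), with Benjamini-Hochberg adjustment and a threshold of 0.05. Alternatives were DESeq2 1.42.0, limma 3.58.1 on log2(FPKM + 1) and log2(FPKM + 0.1), other scales and filters, a replicate block, and each library left out. The mRNA length correction is an offset from a natural spline (5 degrees of freedom) of each library's log2 deviation on the median length of principal transcripts. The code was tested on simulated data with the same dispersion in both groups, so that test does not cover the unequal spread of the pairs here.

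The 9 genes and the pathway lists were chosen with earlier results of these data known. Named from each list were up to 4 genes past the threshold with the smallest p and up to 2 others with the highest mean FPKM, besides CCL20, genes whose exons overlap those of a member, and, for DPM3 and POMK, the next genes in the order of log2 fold change and the 3 genes of nearest pattern. Some genes that this rule takes are not reported here. Promoter windows are RefSeq sequences of GRCh38.p14.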

Additional observations from a re-analysis of the deposited data

How the results depend on the processing

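The 22 called genes that the text names, DPM1, DPM2, DAG1 and 19 others of the pathway, were all still called with DESeq2 and with a replicate block. They numbered 20 on library sizes alone, 17 on a TPM scale, 21 with no filter, 19 and 18 by limma with pseudocounts of 1 and 0.1, 3 with the mRNA length correction and 8 with the exonic one. Leaving out 1 library left the spread to the pair of the other group alone. The mean chi-square per gene was 38.01 for the overexpression pair and 6.45 for the control pair. Calls in the leave-one-out fits are therefore not like for like with the main fit or with each other. Genes past the threshold numbered 3915, and 721 with the mRNA length correction, 1932 with the exonic one and 2067 with the mRNA one and a replicate block; leave-one-out gave 650 to 7579. The 3 called members became 0, 1 and 1 under these corrections (leave-one-out 0 to 4), and the 20 called pathway genes outside the members 5, 8 and 12 (leave-one-out 3 to 35). The replicate block alone gave 5758 genes and moved POMT2 past the threshold (edgeR adjusted p = 0.0264); with 2 pairs the numbers could not be shown to pair the libraries. By limma 1245 were higher and 2608 lower (pseudocount 1), or 1176 and 2438 (0.1).

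Some log2 fold changes turned sign, and the cause was not tested. With the mRNA length correction DPM1 was -0.04, POMT1 0.03, NUS1 0.17, B4GAT1 -0.02, SGCB 0.24, LAMA3 0.01 and CDH3 0.36; with a replicate block added DPM1 was -0.05, POMT1 0.02, NUS1 0.16, B4GAT1 -0.02, SGCB 0.23 and CDH3 0.35. With the exonic one POMT1 was 0.14, POMT2 0.01, DOLPP1 -0.07, B4GAT1 -0.19 and CDH3 0.17. On a TPM scale POMGNT1 was -0.40, DOLPP1 -0.15 and B4GAT1 -0.25. POMGNT1 was -0.11 on library sizes and -0.10 by limma with either pseudocount. Leave-one-out gave -0.34 to 0.14 for POMT1, -0.10 to 0.29 for POMGNT1, -0.22 to 0.08 for POMGNT2, -0.44 to 0.00 for NUS1, -0.37 to 0.13 for SGCB and -0.22 to 0.08 for CDH3. Depth limits POMK most among the 9 genes, at 19 and 21 counts in the overexpression libraries.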
